A study of Homo sapiens with 6 samples.

Results

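The genes described here are those of the ATP-sensitive potassium channel (KATP channel), of 3 facilitative glucose transporters and of G6PC2, a glucose-6-phosphatase of the islet. They were chosen by name, as ABCC8, ABCC9, KCNJ11, KCNJ8, G6PC2, SLC2A1, SLC2A2 and SLC2A3, and all 8 were found among the 26485 gene symbols of the table. RNA was sequenced from 6 cultures of EndoC-βH1, an insulin-secreting line of human beta cells. All cultures had been transduced with lentiCRISPRv2, a lentiviral vector that brings in the Cas9 nuclease and an antibiotic resistance gene, and were kept as selected stable lines. In 3 libraries, labelled Empty (genotype label WT), the vector held no guide, and in the other 3, labelled sgZHX3-3 (genotype label ZHX3 KO), it held 1 guide against the first coding exon of ZHX3, a nuclear protein with zinc fingers and homeodomains. Biological replicates carry the numbers 1 to 3 in both groups, but the titles do not say whether these are separate lines or repeat cultures of 1 line, so SDs and p-values may measure spread between cultures alone, and effects of ZHX3 loss and of the single guide itself cannot be told apart.

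In beta cells glucose enters through facilitative transporters of the SLC2A family, is phosphorylated and is metabolised, which raises ATP. ATP closes the KATP channel, the membrane depolarises, calcium enters and insulin is released. The channel is built of a pore protein of the KCNJ family and a regulatory sulfonylurea receptor of the ABCC family in equal numbers. KCNJ11 (Kir6.2) with ABCC8 (SUR1) forms the beta cell channel, while KCNJ8 (Kir6.1) with ABCC9 (SUR2) is known from smooth muscle and other vascular cells. G6PC2 removes the phosphate from glucose-6-phosphate and so works against the first step of glucose use.

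The libraries held 45101454 to 61051884 counts. In the libraries labelled sgZHX3-3, ZHX3 RNA itself was raised, at 167 to 183 CPM against 101 to 110 CPM (CPM being counts scaled to the normalised library size), or 0.75 on the log2 scale (edgeR adjusted p = 1.62e-05). Directions given here are therefore those between labels. The 7 beta cell markers were all present, with INS at 5206 CPM or more. Of these, 5 (NKX6-1, IAPP, PDX1, SLC30A8 and MAFA) were called higher in the libraries labelled sgZHX3-3, where 7.11% of all tested genes were (edgeR, adjusted p below 0.05). MAFA passed narrowly (edgeR adjusted p = 0.0490). It was at 94.6, 64.5 and 64.9 CPM in Empty 1, 2 and 3 and at 102 to 123 CPM in libraries labelled sgZHX3-3. IAPP, PDX1 and NKX6-1 were also highest of the Empty group in Empty 1, while SLC30A8 was lowest there. Defining markers of other cells were at or near 0 for alpha cells (GCG, 0.135 to 0.403 CPM), PP cells (PPY, at most 0.0447 CPM), acinar cells (PRSS1, CELA3A and CPB1, at most 0.116 CPM) and endothelium (CDH5, 0 in every library). Other genes of these lists were detected, among them TTR (1050 to 1302 CPM) and IRX2 (29.5 to 39.7 CPM) of the alpha list and CPA1 (33.1 to 45.2 CPM) of the acinar list. Calls were thus not limited to beta cell markers. CPA1 was called higher in the libraries labelled sgZHX3-3 (0.31 on the log2 scale, edgeR adjusted p = 0.0145). IRX2 was called lower (−0.34, edgeR adjusted p = 0.00728), and TTR was not called (edgeR adjusted p = 0.293). Of the duct list, KRT19 was at 47.6 to 54.7 CPM and CFTR at no more than 0.201 CPM. A list of 10 heat shock and oxidative stress genes summed to 1307 CPM in Empty 1 but reached 2431 CPM in the other Empty libraries, against 977 to 1098 CPM in the libraries labelled sgZHX3-3. Of the 10, 6 were called lower, where 4.98% of all tested genes were, and 0 with no expression filter (edgeR, adjusted p below 0.05). Their median log2 fold change was −1.29. Without both Empty 2 and 3 it was −0.61, so leaving these out did not remove the difference. The part of these stress genes in the results was not tested. Values without Empty 2 and 3 are given where they differ, but not for the cell type markers.

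Of the 8 genes, 6 had enough counts to be tested. ABCC8, KCNJ11 and KCNJ8 were higher in the libraries labelled sgZHX3-3 and 0 were lower, while 7.11% of all 16199 tested genes were called higher and 4.98% lower (edgeR, adjusted p below 0.05). G6PC2, SLC2A1 and SLC2A2 did not pass, ABCC9 was too low to be tested, and SLC2A3 had no count. The groups did not overlap, all guide libraries being higher, for 4 of the 6 (ABCC8, KCNJ11, KCNJ8 and SLC2A1), against 16.0% of tested genes. The median log2 fold change was 0.28 over the 6 genes and −0.0020 over all tested genes. A change in the share of cells that hold an RNA and a change in its amount per cell cannot be told apart in bulk samples. The count of called genes rested on single libraries: it was 1 without Empty 3, without sgZHX3-3 library 2 or without both Empty 2 and 3, and in each of these settings ABCC8 was the gene that passed.

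**Figure D1:**
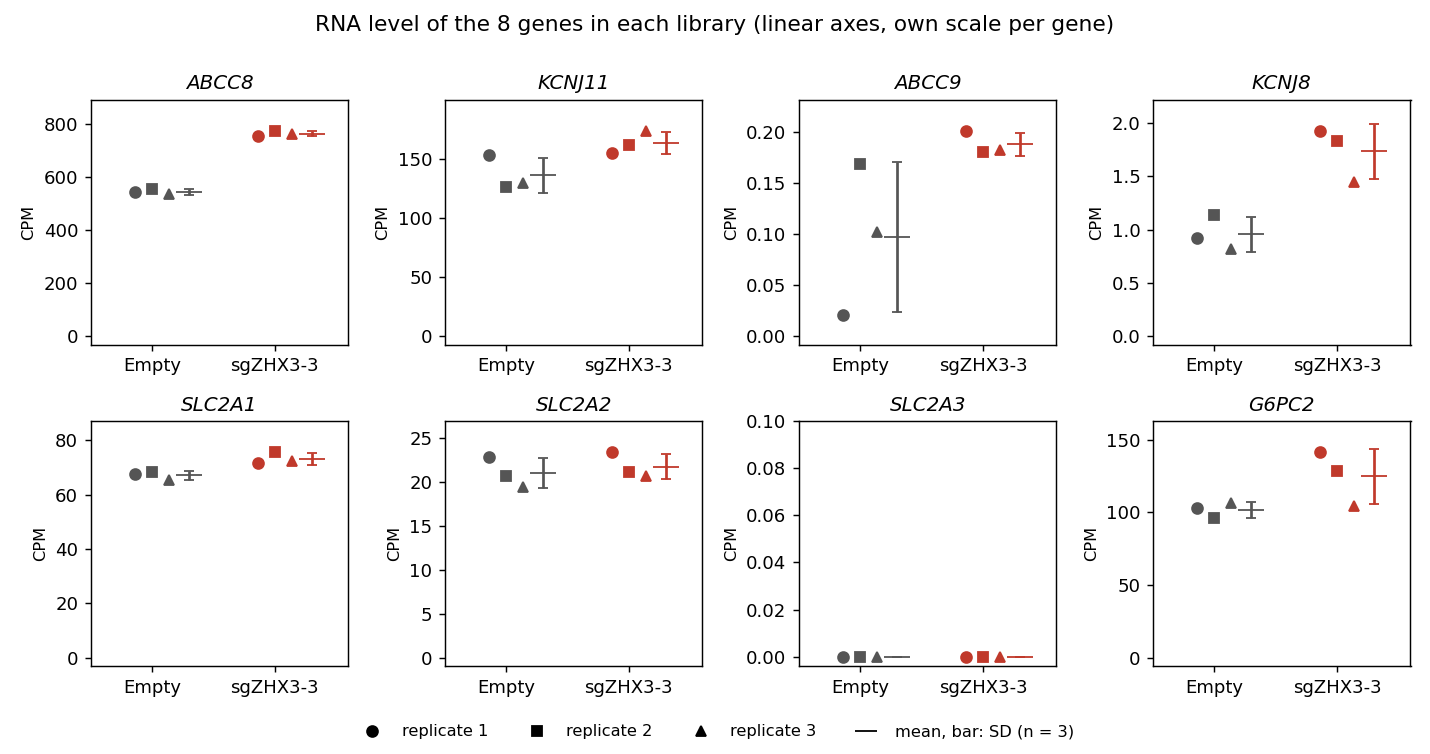
CPM of the 8 genes in each library, with the 3 Empty libraries in grey and the 3 libraries labelled sgZHX3-3 in red, each panel on its own linear scale and the bar giving mean and SD. ABCC8 separates the groups widely (536 to 557 against 755 to 776 CPM), KCNJ11 only narrowly, and SLC2A3 stays at 0 throughout.

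ABCC8 had the clearest difference of the set. The sulfonylurea receptor binds and hydrolyses nucleotides, and it is the target of the sulfonylurea drugs. Its level was 545, 557 and 536 CPM in Empty 1, 2 and 3 and 755, 776 and 763 CPM in libraries 1, 2 and 3 labelled sgZHX3-3. The groups lay far apart, and within each of them the libraries differed little. The means were 546 ± 10.6 and 765 ± 10.2 CPM (SD, n = 3 each), which is 1.40-fold. On the log2 scale this difference was 0.49, its standard error 0.0475 and its 95% interval 0.38 to 0.59 (edgeR adjusted p = 7.08e-05). The 2 groups were called different with every alternative setting, the log2 fold change staying between 0.45 and 0.50. With Empty 2 and 3 left out it was 0.49 (edgeR adjusted p = 0.0106), the same size as with all libraries.

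KCNJ11, the pore of the same channel, was higher by a smaller and less secure margin. It was at 153, 126 and 129 CPM in Empty 1, 2 and 3 and at 155, 162 and 174 CPM in libraries 1, 2 and 3 labelled sgZHX3-3. Empty 1 thus lay close to the lowest guide library, and the separation of the groups rested on 153 against 155 CPM. The means were 136 ± 14.8 CPM (SD, n = 3) and 163 ± 9.57 CPM (SD, n = 3). This is 1.20-fold (95% interval 1.08 to 1.34), or 0.26 with SE 0.0739 on the log2 scale (edgeR adjusted p = 0.0353). The call was lost with Empty 2 left out (edgeR adjusted p = 0.16) or Empty 3 (0.161), and likewise without library 2 (0.11) or 3 (0.124) of those labelled sgZHX3-3. Without both Empty 2 and 3 the log2 fold change was 0.10 (edgeR adjusted p = 0.643), and without Empty 1 it was 0.36 (edgeR adjusted p = 0.00114). Empty 1, which holds the least stress RNA of its group, is the Empty library with the most KCNJ11 RNA. Of the beta cell markers, INS, IAPP, PDX1, NKX6-1, MAFA and NEUROD1 were also highest of the group in Empty 1, and SLC30A8 was lowest. Whether any of these levels are linked was not tested.

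ABCC8 and KCNJ11 are neighbours on the minus strand of chromosome 11 (GRCh38). By GENCODE, ABCC8 (ENSG00000006071.13) runs from 17392498 to 17476879 and KCNJ11 (ENSG00000187486.5) from 17385859 to 17389331, 3.17 kb apart. The ratio of ABCC8 to KCNJ11 counts, each per base of its coding transcript, was 1.87, 2.32 and 2.17 in Empty 1, 2 and 3. It was 2.56, 2.52 and 2.30 in libraries 1, 2 and 3 labelled sgZHX3-3. The groups overlapped, since Empty 2 lay above sgZHX3-3 library 3. The mean ratio was 2.12 ± 0.230 (SD, n = 3) in Empty and 2.46 ± 0.137 (SD, n = 3) in libraries labelled sgZHX3-3. The difference was 0.22 on the log2 scale (two-sided exact permutation p = 0.2, adjusted over 3 ratios 0.3). The smallest p that 3 against 3 can give is 0.1, so this test could not have passed whatever the values. Whether ABCC8 rose more than KCNJ11 is therefore not decided by it. Such a ratio within a library needs no scaling of library sizes.

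**Figure D2:**
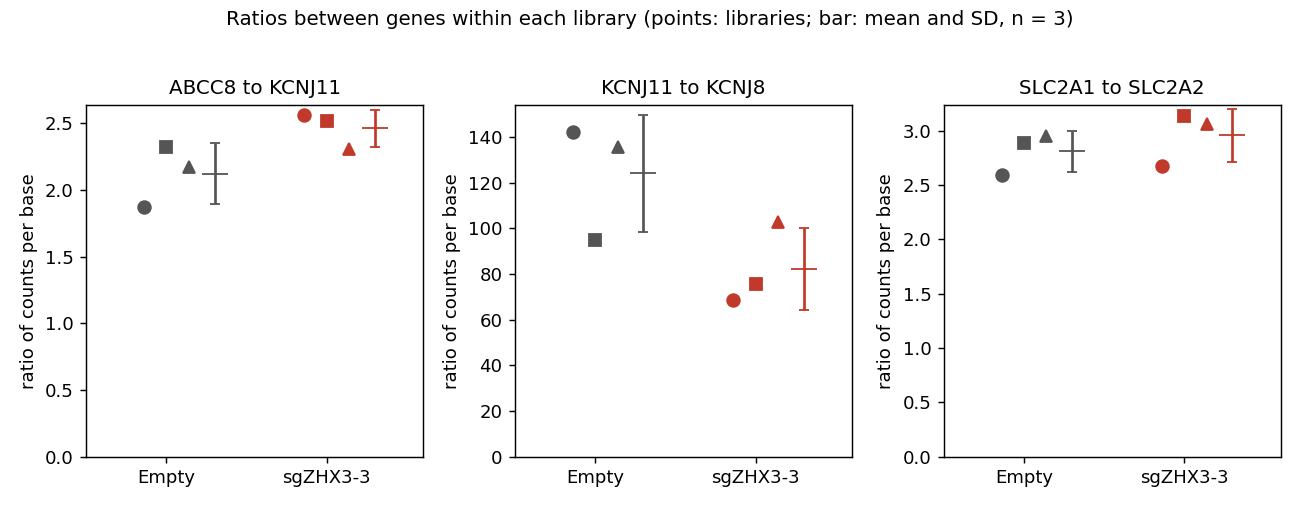
Ratio of counts per base between pairs of the genes within each library (grey: Empty; red: labelled sgZHX3-3; bar: mean and SD). The groups overlap in all 3 panels, with ABCC8 to KCNJ11 between 1.87 and 2.56.

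The genes on either side of this pair were part of a list of neighbouring and antisense genes. USH1C, which encodes the scaffold protein harmonin and lies 17.0 kb from ABCC8 with no coding gene between, went from 145, 134 and 131 CPM in Empty to 161, 170.1 and 185 CPM in libraries labelled sgZHX3-3. Its log2 fold change was 0.33 (edgeR adjusted p = 0.00553), and it lost the call without both Empty 2 and 3 (0.25, adjusted p = 0.23). NCR3LG1, a ligand of a natural killer cell receptor on the other side of KCNJ11, was at 96.9, 144 and 145 CPM in Empty and 159, 163 and 140 CPM in libraries labelled sgZHX3-3. It overlapped between groups and did not pass (0.26, edgeR adjusted p = 0.332). Of 10 tested genes in that list, USH1C and TNIK were higher and 0 lower, with a median log2 fold change of −0.000075. Over all tested genes, 7.11% were called higher and 4.98% lower.

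KCNJ8 was called higher at a level far below that of KCNJ11. Empty 1, 2 and 3 held 43, 67 and 40 counts, and libraries 1, 2 and 3 labelled sgZHX3-3 held 86, 91 and 87. This is 0.919, 1.13 and 0.815 CPM against 1.92, 1.82 and 1.44 CPM, and the groups did not overlap. The difference was 1.79-fold (95% interval 1.32 to 2.43), or 0.84 with SE 0.204 on the log2 scale (edgeR adjusted p = 0.0195). The call was lost without Empty 3 (0.0968), sgZHX3-3 library 1 (0.0583) or sgZHX3-3 library 2 (0.0841), and without both Empty 2 and 3, where the log2 fold change was 0.90 (edgeR adjusted p = 0.182). The ratio of KCNJ11 to KCNJ8 counts per base went from 124 ± 25.5 (SD, n = 3) to 82.3 ± 18.0 (SD, n = 3). The groups overlapped (two-sided exact permutation p = 0.2, adjusted 0.3, a test that could not have passed with so few libraries). RNA of the beta cell pore subunit was thus at least 68.7 times that of its paralog, per base, in each library.

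ABCC9, the partner of KCNJ8, was close to the limit of detection. It had 1, 10 and 5 counts in Empty 1, 2 and 3 and 9, 9 and 11 counts in libraries 1, 2 and 3 labelled sgZHX3-3, or 0.0214, 0.169 and 0.102 CPM against 0.201, 0.181 and 0.183 CPM. Counts overlapped between the groups, CPM did not, and Empty 1 stood well below the rest. The gene did not pass the filter on low counts, and with no filter it was not called (edgeR adjusted p = 0.429). KCNJ8 (chromosome 12, 21764955 to 21775581) and ABCC9 (21797401 to 21942529) lie 21.8 kb apart on the minus strand, the same arrangement as the pair on chromosome 11. Among 6 markers of mural and smooth muscle cells, in which this pair is known, 3 were tested and 0 were called. Their summed level was 13.2 to 14.7 CPM in Empty and 14.8 to 15.1 CPM in libraries labelled sgZHX3-3, nearly all of it RGS5 and NOTCH3, while the contractile marker ACTA2 was at 0 to 0.0611 CPM and MYH11 at 0.0676 to 0.246 CPM. Their part in the KCNJ8 result was not tested.

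The 250 bases before the annotated start are shown for KCNJ8 as the one called gene with an entry in the RefSeq promoter table (GRCh38.p14), in which 5 of the 8 genes were matched (ABCC9, KCNJ8, G6PC2, SLC2A1 and SLC2A2). Searched on both strands were the NF-Y motif (CCAAT), the TATA box (TATAAA), the E box of basic helix-loop-helix factors (CANNTG), the GC box (CCGCCC) and a homeodomain core (TAATTA). Matches of different motifs did not overlap in the windows shown. The window is chr12:21774707-21774956 on the minus strand, and capitals mark matches.
KCNJ8: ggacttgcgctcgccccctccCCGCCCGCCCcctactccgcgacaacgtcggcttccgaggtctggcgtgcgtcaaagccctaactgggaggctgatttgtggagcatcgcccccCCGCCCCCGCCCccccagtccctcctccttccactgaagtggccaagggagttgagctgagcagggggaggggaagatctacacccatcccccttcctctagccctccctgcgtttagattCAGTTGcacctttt
It holds 4 GC boxes, at 229, 225, 135 and 129 bases before the start, of which the first pair share letters, and 1 E box 14 bases before the start. Of 35116 promoter windows of this length 42.6% held a GC box, 61.8% an E box, 32.0% the NF-Y motif, 10.7% a TATA box and 4.35% the homeodomain core, and the last 3 of these are not among the letters of this window. A match describes letters only. The RefSeq starts of the windows shown lie inside the GENCODE gene spans.

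G6PC2 did not pass, and its difference was seen in 2 of the 3 guide libraries. It was at 103, 95.9 and 106 CPM in Empty 1, 2 and 3 and at 141, 128 and 104 CPM in libraries 1, 2 and 3 labelled sgZHX3-3. Library 3 lay within the Empty range and the other 2 lay above it. The means were 102 ± 5.37 CPM (SD, n = 3) and 125 ± 18.8 CPM (SD, n = 3), apart by 0.29 with SE 0.0925 on the log2 scale (edgeR adjusted p = 0.061). The 95% interval, 1.06 to 1.41-fold, takes no account of the number of genes tested. Without sgZHX3-3 library 3 the log2 fold change was 0.41 and the gene was called (edgeR adjusted p = 0.00383), and DESeq2 called it with all libraries (adjusted p = 0.0157). G6PC2 (chromosome 2, 168901240 to 168910000, plus strand) lies wholly within the span of SPC25, a kinetochore gene on the other strand, and the sources used here do not say whether counting used strand, so the 2 counts may share reads. SPC25 was at 25.6, 26.7 and 27.1 CPM in Empty and at 24.8, 23.3 and 18.9 CPM in libraries labelled sgZHX3-3 (log2 fold change −0.25, edgeR adjusted p = 0.0961), with library 3 lowest for both genes among the guide libraries.

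The G6PC2 window is shown because this gene is known for its restriction to islets. It spans chr2:168901041-168901290 on the plus strand, with matches to the same 5 motifs in capitals.
G6PC2: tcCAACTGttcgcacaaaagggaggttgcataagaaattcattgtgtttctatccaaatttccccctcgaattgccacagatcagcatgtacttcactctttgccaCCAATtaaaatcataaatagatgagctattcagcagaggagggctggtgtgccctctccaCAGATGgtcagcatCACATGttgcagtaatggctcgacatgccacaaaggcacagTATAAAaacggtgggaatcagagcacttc
A TATA box starts 29 bases before the start, an NF-Y motif lies 144 bases before it, and E boxes lie 248, 84 and 70 bases before it. No GC box is among these letters, and the window has a GC content of 44.8%, where the median of all windows is 58%.

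SLC2A1 and SLC2A2, the transporters GLUT1 and GLUT2, showed no call in either direction. GLUT1 is a high-affinity carrier found in most cells and is held to be the main form in human beta cells, while GLUT2 is a low-affinity carrier that is the main form in rodent beta cells and in liver. SLC2A1 was at 67.6, 68.3 and 65.4 CPM in Empty 1, 2 and 3 and at 71.5, 75.6 and 72.3 CPM in libraries 1, 2 and 3 labelled sgZHX3-3. All guide libraries were higher than all Empty libraries, by a narrow gap. The difference was 0.12 with SE 0.0534 on the log2 scale (edgeR adjusted p = 0.147), and the 95% interval was 1.01 to 1.18-fold. It was not called under any of the 15 alternative settings, with adjusted p from 0.0707 to 0.555. Its neighbour on the other strand, SLC2A1-AS1, overlaps it by 128 bases and was at 0.134 to 0.598 CPM.

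SLC2A2 was at 22.8, 20.7 and 19.4 CPM in Empty 1, 2 and 3 and at 23.4, 21.1 and 20.7 CPM in libraries 1, 2 and 3 labelled sgZHX3-3. Replicate 1 was the highest in both groups and the ranges overlapped almost wholly. The means were 21.0 ± 1.73 CPM (SD, n = 3) and 21.7 ± 1.45 CPM (SD, n = 3), 0.05 apart on the log2 scale (edgeR adjusted p = 0.739). Its 95% interval, from 0.917 to 1.17-fold, leaves out a change as large as that of ABCC8 or KCNJ8. The sign of this small value turned without Empty 3, without sgZHX3-3 library 1 and without both Empty 2 and 3 (−0.07). TNIK, a kinase gene 34.6 kb from SLC2A2 on chromosome 3, was higher by 0.33 (edgeR adjusted p = 0.00478). It spans 399 kb, and its call was lost when a dependence on gene span was taken out (0.17, adjusted p = 0.06) and without both Empty 2 and 3 (0.38, adjusted p = 0.0728).

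The ratio of SLC2A1 to SLC2A2 counts per base was 2.59, 2.88 and 2.95 in Empty 1, 2 and 3 and 2.68, 3.14 and 3.06 in libraries 1, 2 and 3 labelled sgZHX3-3. The groups overlapped (two-sided exact permutation p = 0.5, adjusted 0.5, again a test that could not have passed with so few libraries). SLC2A1 had the higher level in all 6 libraries. The windows before the starts of these 2 genes are shown side by side, SLC2A1 at chr1:42958869-42959118 and SLC2A2 at chr3:171026721-171026970, both on the minus strand and marked as before.
SLC2A1: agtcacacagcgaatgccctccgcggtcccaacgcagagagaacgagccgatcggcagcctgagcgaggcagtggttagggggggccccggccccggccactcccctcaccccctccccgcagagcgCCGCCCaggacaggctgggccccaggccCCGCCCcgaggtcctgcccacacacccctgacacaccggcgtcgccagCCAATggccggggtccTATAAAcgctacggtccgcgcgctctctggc
SLC2A2: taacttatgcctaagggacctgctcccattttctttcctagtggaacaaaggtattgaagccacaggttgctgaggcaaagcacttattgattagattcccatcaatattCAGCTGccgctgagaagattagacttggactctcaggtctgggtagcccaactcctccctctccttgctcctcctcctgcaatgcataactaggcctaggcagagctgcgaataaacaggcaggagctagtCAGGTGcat
The SLC2A1 window has a TATA box 31 bases and an NF-Y motif 47 bases before the start, with GC boxes 123 and 95 bases before it. The SLC2A2 window has only 2 E boxes, 140 and 9 bases before the start, among the motifs searched. They differ in base composition, with GC contents of 72.4% and 48.8%.

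SLC2A3, the transporter GLUT3 best known from neurons, had 0 counts in all 6 libraries. A count of 0 allows up to 3 counts per library, or 0.0491 to 0.0665 CPM, for counting error only. Against that floor SLC2A1 was at least 1125-fold higher per base in every library, and SLC2A2 at least 387-fold higher. SLC2A3 and its near-identical paralog SLC2A14 were both at 0, and how reads matching several places were treated is unknown here, so neither value is certain.

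Levels between genes were compared per kilobase of the coding transcript with the longest coding sequence. In Empty the order was ABCC8 at 102 ± 1.98 CPM per kb (SD, n = 3), G6PC2 at 83.8 ± 4.42, KCNJ11 at 48.6 ± 5.27, SLC2A1 at 18.3 ± 0.417, SLC2A2 at 6.53 ± 0.537, KCNJ8 at 0.400 ± 0.0678, ABCC9 at 0.0117 ± 0.00891 and SLC2A3 at 0. In libraries labelled sgZHX3-3 the order was the same, with ABCC8 at 143 ± 1.91 CPM per kb (SD, n = 3), G6PC2 at 103 ± 15.5 and KCNJ11 at 58.4 ± 3.42. Down to KCNJ8, each gene in the Empty order was apart from the next by more than the spread of the libraries, while ABCC9, with 1 count in Empty 1, was not apart from SLC2A3 there. The top of the order depended on the length used: per kilobase of all annotated exons ABCC8 was at 43.4 ± 0.840, KCNJ11 at 42.5 ± 4.61 and G6PC2 at 32.6 ± 1.72 CPM per kb in Empty (SD, n = 3). ABCC8 and KCNJ11 then did not differ beyond their spread, and G6PC2 came after both. The other 5 genes and ABCC8 kept their place.

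**Figure D3:**
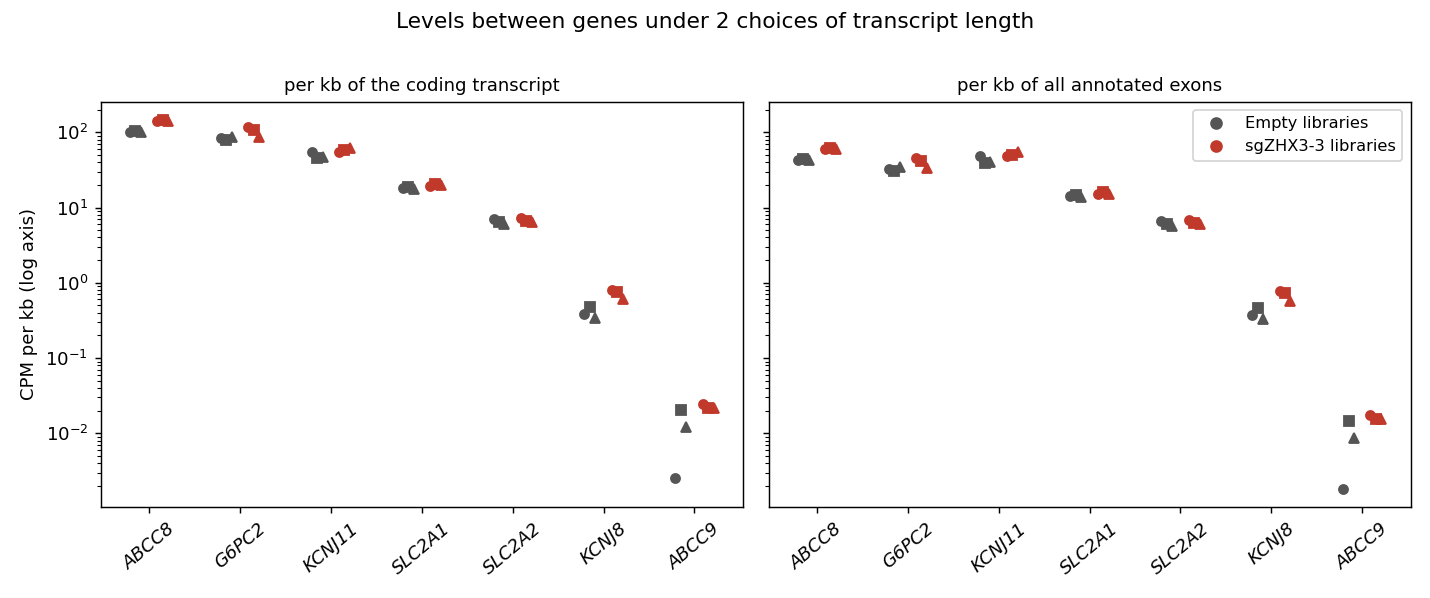
CPM per kb in each library on a log axis, per coding transcript (left) and per all annotated exons (right), for the 7 genes with counts; SLC2A3, at 0, cannot be drawn. ABCC8, G6PC2 and KCNJ11 hold the top 3 places either way, and KCNJ8 and ABCC9 stay below 1 CPM per kb.

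Genes of the same pathway were read from lists, beside 7.11% of all tested genes called higher and 4.98% called lower. Of 17 other glucose transporter genes, 11 were tested, 1 was higher and 0 lower, with a median log2 fold change of −0.07. The one called was SLC2A6, a lysosomal transporter, at 26.1, 22.2 and 23.2 CPM in Empty and 28.95, 33.0 and 37.8 CPM in libraries labelled sgZHX3-3, without overlap (0.48 on the log2 scale, edgeR adjusted p = 0.00631). It lost the call without both Empty 2 and 3 (0.36, adjusted p = 0.271). The most abundant of the list was SLC2A13, a proton-coupled inositol carrier, at 153 to 196 CPM (0.15, edgeR adjusted p = 0.173). SLC2A11 was at 20.4 to 25.0 CPM and did not pass. The genes SLC2A7 and SLC2A14 had no count.

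Of 15 tested genes listed for glucose phosphorylation and glucose-6-phosphate use, 1 was higher, 0 were lower and 14 did not pass, with a median of −0.03. Over all tested genes, 7.11% were called higher and 4.98% lower. PFKFB2, which makes the activator of phosphofructokinase, rose by 0.23 (edgeR adjusted p = 0.0205). It lost the call without Empty 2, Empty 3 or sgZHX3-3 library 2 or 3, at log2 fold changes of 0.19 to 0.23 (adjusted p from 0.0588 to 0.107), and without both Empty 2 and 3 (0.17, adjusted p = 0.38). Among the hexokinases HKDC1 was at 21.6 to 31.6 CPM, HK1 at 2.15 to 2.54 CPM and HK2 at 0.224 to 0.541 CPM, and none of these passed (edgeR adjusted p = 0.939, 0.802 and 0.37). GPI, which turns glucose-6-phosphate into fructose-6-phosphate, was the most abundant at 155 to 164 CPM (−0.04, edgeR adjusted p = 0.658). SLC37A4, which carries glucose-6-phosphate into the endoplasmic reticulum where G6PC2 acts, was at 74.3 to 98.1 CPM (−0.0077, edgeR adjusted p = 0.971), and G6PC3, the widely expressed phosphatase, at 42.7 to 48.9 CPM.

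Of 15 tested paralogs of the channel subunits, 2 were higher and 0 lower, with a median of 0.06. The shares over all tested genes were 7.11% higher and 4.98% lower. ABCC6, a transporter of liver and kidney, was at 26.9 to 30.05 CPM in Empty and 35.9 to 38.1 CPM in libraries labelled sgZHX3-3 (0.38 on the log2 scale, edgeR adjusted p = 0.0031), and was not called without both Empty 2 and 3 (0.30, adjusted p = 0.17). Its count is uncertain because pseudogene copies exist. KCNJ4, another inward rectifier, was at 0.73 (edgeR adjusted p = 0.0395) and lost the call without Empty 2, Empty 3 or sgZHX3-3 library 2 or 3, at 0.58 to 0.72 (adjusted p from 0.101 to 0.166), and without both Empty 2 and 3 (0.32, adjusted p = 0.601). KCNJ3, a subunit of G protein-gated channels, was the most abundant at 87.2 to 131 CPM and did not pass (0.16, edgeR adjusted p = 0.565). ABCC5 (48.2 to 55.4 CPM) and ABCC1 (36.5 to 41.5 CPM) did not pass.

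Adenylate and creatine kinases pass high-energy phosphate between ATP use and ATP supply, but not all of those listed act near the channel. Of 11 tested genes in that list 0 were higher and 2 lower, with a median of −0.07. Among all tested genes 7.11% were called higher and 4.98% lower. AK4, a mitochondrial matrix kinase, was at 2.65, 2.79 and 2.63 CPM in Empty 1, 2 and 3 and at 1.52, 1.44 and 1.59 CPM in libraries 1, 2 and 3 labelled sgZHX3-3, so the groups lay well apart. It fell by 0.82 on the log2 scale (edgeR adjusted p = 0.00388), and without both Empty 2 and 3 it was at −0.80 (adjusted p = 0.116). AK3, another matrix kinase, fell by 0.18 (edgeR adjusted p = 0.0421) and lost the call without Empty 2, Empty 3 or sgZHX3-3 library 2 or 3, at −0.20 to −0.16 (adjusted p from 0.097 to 0.165). The call was also lost without both Empty 2 and 3 (−0.23, adjusted p = 0.188) and with a dependence on gene span taken out (−0.16, adjusted p = 0.0719). The abundant CKB (96.6 to 118 CPM) and AK6 (36.9 to 45.3 CPM) did not pass.

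**Figure D4:**
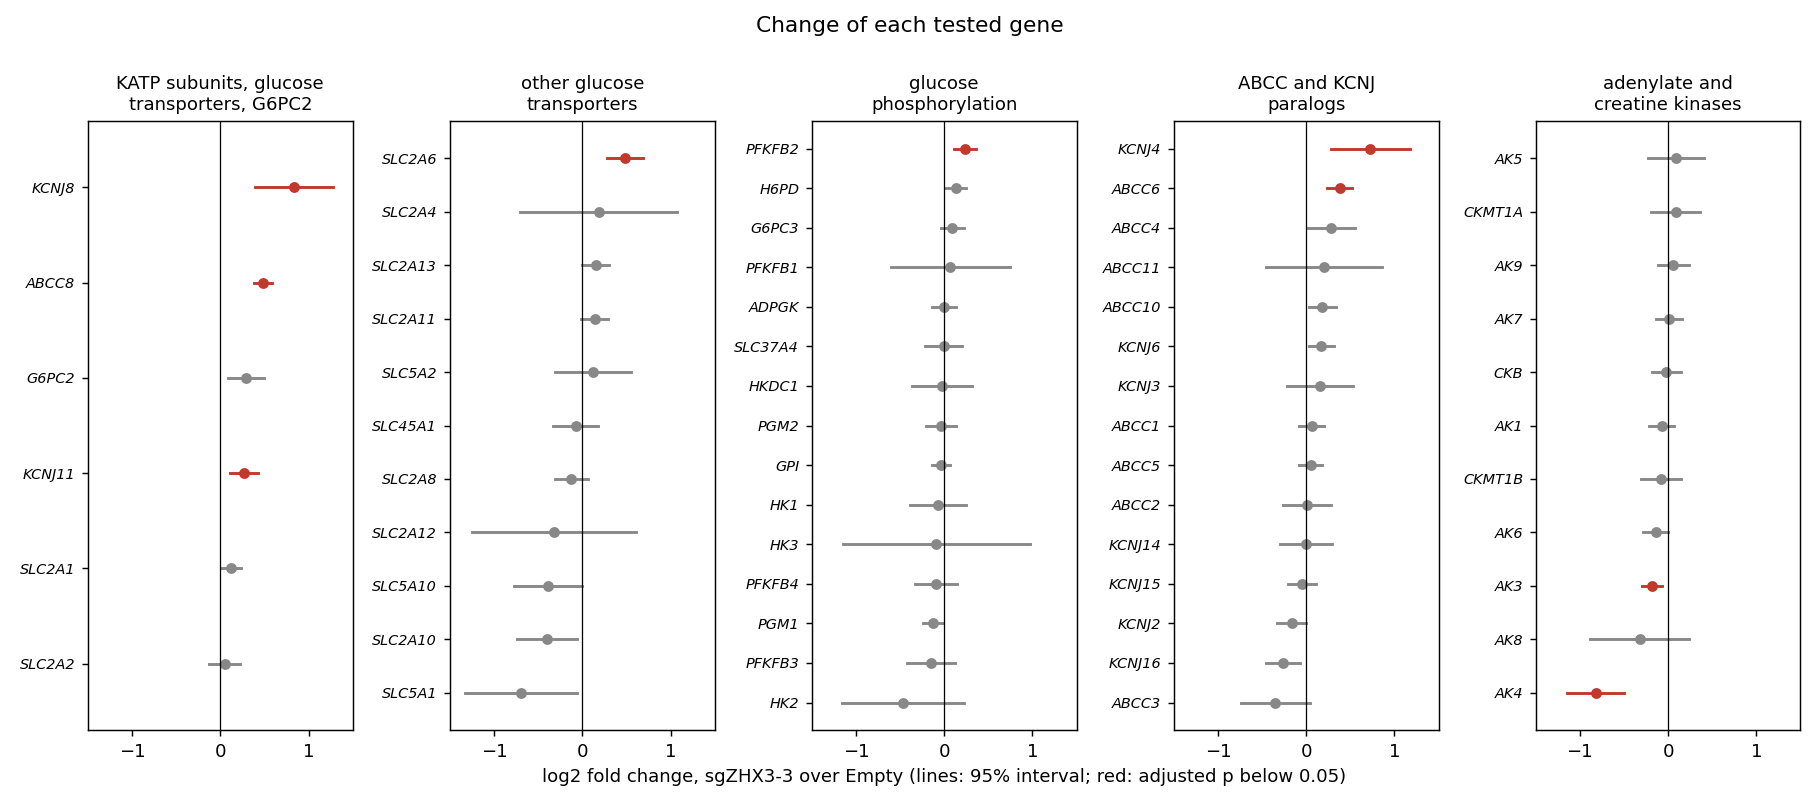
Log2 fold change with its 95% interval for each tested gene of the set and of 4 lists, red where the adjusted p is below 0.05. The called genes are ABCC8, KCNJ11 and KCNJ8 in the first panel, and 6 in the other 4 panels.

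The genes whose levels most resembled those of ABCC8 were SHISA6, an auxiliary subunit of glutamate receptors, MYO7B, a brush border myosin, and NUP210, a nuclear pore protein. Their Pearson correlations of log2 CPM with ABCC8 over the 6 libraries were 0.999, 0.999 and 0.999, the highest among 12906 genes of at least 1 CPM. For KCNJ11 they were SPHK2, a sphingosine kinase, THRA, a thyroid hormone receptor, and P3H2, a collagen hydroxylase (0.999, 0.998 and 0.998). These libraries share the group difference and their depth, and 393 genes lay above 0.95 with ABCC8 and 489 with KCNJ11. KCNJ11 itself stood at place 1791 for ABCC8, with a correlation of 0.793, while KCNJ8 was at 0.932, SLC2A1 at 0.924, G6PC2 at 0.697 and SLC2A2 at 0.278. THRA had the same shape as KCNJ11, with 39.9 CPM in Empty 1, 31.1 and 31.6 CPM in Empty 2 and 3, and 40.7, 43.8 and 48.8 CPM in libraries labelled sgZHX3-3.

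**Figure D5:**
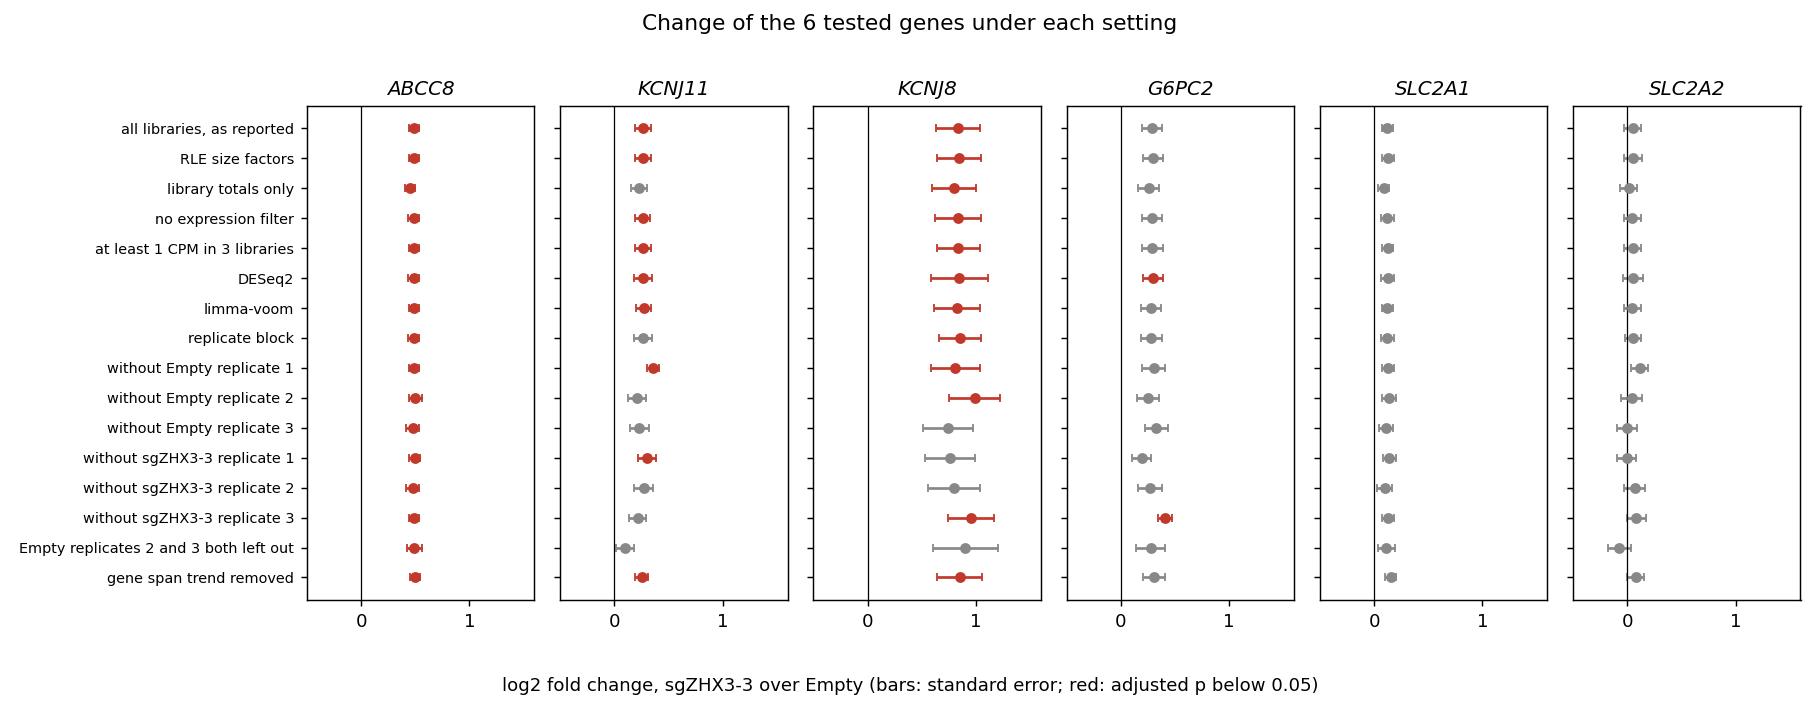
Log2 fold change and standard error of the 6 tested genes under each setting, red where called. ABCC8 stays between 0.45 and 0.50 and is called in every setting, KCNJ11 ranges from 0.10 to 0.36, and SLC2A1 and SLC2A2 are never called.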

How the data were processed

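RNA of 6 EndoC-βH1 libraries was measured, prepared with the NEBNext Ultra Directional stranded kit as given per the labels' protocols. The authors aligned reads with STAR to hg38 and counted them with featureCounts, per the submitters' processing notes; for versions, annotation, strand setting and multi-mapping, nothing is given in the sources used here. What the authors deposited is a table of unnormalised counts with 1 column per library and 0 value columns without a sample. Columns were joined to samples by group and replicate letter.

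Genes were kept by filterByExpr (minimum count 10, total 15), which left 16199, and scaled by TMM (factors 0.984 to 1.02). The groups were compared with edgeR 4.0.16 (robust quasi-likelihood test, group only, Benjamini-Hochberg over all tested genes, called below 0.05) in R 4.3.3. Standard errors came from the fold change and F statistic. Ratios within a library used exact permutation tests. Coordinates and lengths came from GENCODE 29 (GRCh38) and promoters from RefSeq. DESeq2 1.42.0, limma 3.58.1 (voom) and other scalings, filters and library subsets were alternatives; the gene span trend and the exon lengths were added after seeing the data. The genes and lists were chosen with earlier results of these data known, and 2 genes were taken out of the lists and are not reported here. Named were the 8 genes, ZHX3, called list members, the 3 most abundant of each pathway list and the 3 nearest genes by correlation (with 0.05 CPM added); the hexokinases, G6PC3, SPC25, NCR3LG1 and SLC2A1-AS1 were added after their values were seen. On simulated counts for this comparison with 16081 genes tested, recovery was 32.8% at 1.25-fold, 83.6% at 1.5-fold and 89.4% at 2-fold, and 11 of 148 calls were false. The simulation changed 67, 67 and 66 genes at these sizes, against 1958 genes called in the data, and drew each library independently. Its rates may therefore not hold for the real libraries.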

Additional observations from a re-analysis of the deposited data

How the results depend on the processing

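ABCC8 kept its call under all 15 alternatives, and SLC2A1 and SLC2A2 stayed uncalled under all 15. KCNJ11 was not called with library totals only (0.23), with the replicate block (0.27) or without both Empty 2 and 3 (0.10), and ranged from 0.21 to 0.36 with 1 library left out. KCNJ8 was not called without both Empty 2 and 3 (0.90) and ranged from 0.74 to 0.99 with 1 library left out. G6PC2 was called by DESeq2 (0.29) and ranged from 0.19 to 0.41 with 1 library left out. SLC2A2 turned sign without Empty 3 (−0.00071), without sgZHX3-3 library 1 (−0.0064) and without both Empty 2 and 3 (−0.0716), and reached 0.11 with 1 library left out. The count of the 8 genes called higher was 3, and 1 without both Empty 2 and 3 or at an adjusted p of 0.01, and 1 to 3 with 1 library left out. The causes of these changes were not tested. Settings that leave libraries out differ from the reported one both in which libraries they hold and in how many.

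Over all genes 1151 were higher and 807 lower. These counts were 516 and 239 with the replicate block, 209 and 40 without both Empty 2 and 3, and 467 and 194 at an adjusted p of 0.01. With library totals only 904 were higher and 1272 lower, so that 41.5% of called genes were higher against 58.8% as reported. With 1 library left out they ranged from 474 to 1792 and from 184 to 1499. In the per-kilobase order 6 of 8 genes kept their place with exon lengths. The 3 tested ratios kept their direction under all 9 alternatives each, and none of these can reach 0.05 with so few libraries. For these ratios the replicate block cannot change the difference. Leaving out the length scaling can change it only through the pseudocount of 1 added in that setting. Same-numbered libraries did not deviate together (correlations −0.138, 0.0685 and −0.142), so the numbers were not treated as pairs, and the block counts above are given only as an alternative. Of the list genes PFKFB2 (0.23, edgeR adjusted p = 0.0831), KCNJ4 (0.74, 0.109) and AK3 (−0.18, 0.103) were not called with the block. With both Empty 2 and 3 left out the lone Empty library is assumed to vary like the others. Depth limits ABCC9, which was too low for a change to be read. SLC2A3 had no count, so no change could be read there either. Its value is uncertain, since the treatment of reads matching several places is unknown.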
